A study of Mus musculus with 48 samples.

Results

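The prefrontal cortex (PFC) and the dentate gyrus (DG) of amyloid mice were compared, with the genes of glial cells first. APPPS1-21 mice carry human transgenes with mutations of familial Alzheimer's disease, APP among them, driven by Thy1 elements that are active in neurons, and develop amyloid plaques in the brain. RNA of whole tissue was sequenced, so each library mixed neurons, glia and vessel cells. The 6 PFC mice were those whose library titles name the PFC and carry the letter C, and the 7 DG mice were those of the cross of APP with Fmn2 mutants whose titles carry the letter W. These 13 mice, sequenced in 14 runs, were drawn from 46 mice and 48 runs. The W mice were selected on their Fmn2 RNA, which was present at 84.1 to 102.8 CPM (read counts scaled by the normalised library size) against 94.6 to 111 CPM in the PFC mice. Fmn2 is therefore given as a description only.

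All groups were of the C57BL/6J strain, and the mice of the study were male according to its methods. The PFC mice had the genotype field "APP" and an age field of 4 months, although their titles name several ages. The DG mice had an age of 3 months and the genotype field "FMN2-/-_APP", although Fmn2 was expressed in all 7 of them. The field for tissue reads dentate gyrus in every library, including those titled PFC. Wild-type mice of each region served to set the regional difference without amyloid beside the one with it. They were 6 PFC mice of 4 months by the same field and 5 DG mice of 3 months, both with the genotype field "wild type". The PFC amyloid mice and the DG amyloid mice came from different experiments. They differed in labelled age, breeding and sex-linked reads, and largely in sequencing lane, so region and experiment cannot be told apart in any value below. The number of cells of a type and the RNA made per cell cannot be told apart either, because the tissue was not separated into cells.

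Microglia are the resident macrophages of the brain. Around amyloid plaques they take up the lipid and amyloid they meet through the receptor Trem2 and its signalling partner Tyrobp, and switch on a set of lysosomal and surface genes such as Cst7, Clec7a and Itgax, while genes of the surveying, homeostatic state such as P2ry12 and Tmem119 recede. Astrocytes, which clear glutamate and potassium and couple neurons to vessels, enter a reactive state marked by the filament proteins Gfap and Vim and by the protease inhibitor Serpina3n.

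Sequencing depth lay between 23970623 and 31163948 reads counted in genes for the PFC amyloid mice, with a median of 28018402, and between 22079163 and 41715344 for the DG amyloid mice, with a median of 25332613. The region markers followed the titles and not the tissue field. Prox1, the transcription factor that defines dentate granule cells, measured 12 to 15.1 CPM in the PFC mice and 180 to 374 in the DG mice (log2 difference, PFC minus DG, -4.37 ± 0.15 SE, adjusted p = 5.31e-12, edgeR quasi-likelihood test). Tbr1, a transcription factor of deep cortical layers, measured 129 to 158 and 24.9 to 48.4 CPM. The 7 DG libraries were less alike than the 6 PFC libraries. DG replicate 2 held the highest values of plaque-associated microglial genes, DG replicate 6 the highest endothelial sum (732 CPM against a median of 358) and border macrophage sum (59 against 19.8), and DG replicate 7 stood far above the other 6 for Foxp2, Prlr, Trh and Irs4 (Irs4 at 61.7 CPM against a median of 0.697). The dentate granule sum was lowest in DG replicate 7, at 1451 CPM against a median of 2036. Xist, the RNA of the inactive X chromosome, was abundant in DG replicates 1, 3, 6 and 7, which is 4 of the 7 DG mice, and Y-linked genes were read in the other 3 and in all 6 PFC mice. All 6 PFC and all 5 DG wild-type mice had Y-linked reads as well. Sex-linked reads were thus unbalanced between the regions and between the DG amyloid and DG wild-type mice.

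Counts of App and Thy1 differed between the regions. App, the amyloid precursor, measured 2735 to 3115 CPM in the PFC amyloid mice, above all 6 PFC wild-type mice (1801 to 1988). In the DG amyloid mice it measured 1417, 1787, 1672, 1853, 1576, 1323 and 1454 CPM in replicates 1 to 7, and 1 of the 7 lay above the DG wild-type range of 1538 to 1827. Thy1, whose regulatory sequence is part of the transgene, measured 1862 to 2388 CPM in the PFC amyloid mice against 713 to 772 in their wild type. In the DG amyloid mice Thy1 ran from 778 in replicate 1 to 1686 in replicate 4, and 5 of the 7 lay above the DG wild-type range of 803 to 871. The difference between regions was 0.85 ± 0.08 for App (adjusted p = 1.13e-07) and 0.82 ± 0.16 for Thy1 (adjusted p = 0.000294). How many reads of the human transgene were assigned to the mouse genes is not given in the sources used here, and the part of transgene level in the glial differences was not tested. The 7 mice are called DG amyloid mice after their labels. With App of 1 and Thy1 of 5 of the 7 above the DG wild-type range, these values do not show that all 7 carried the transgene. Every regional and interaction value below rests on the labels in that respect.

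**Figure D1:**
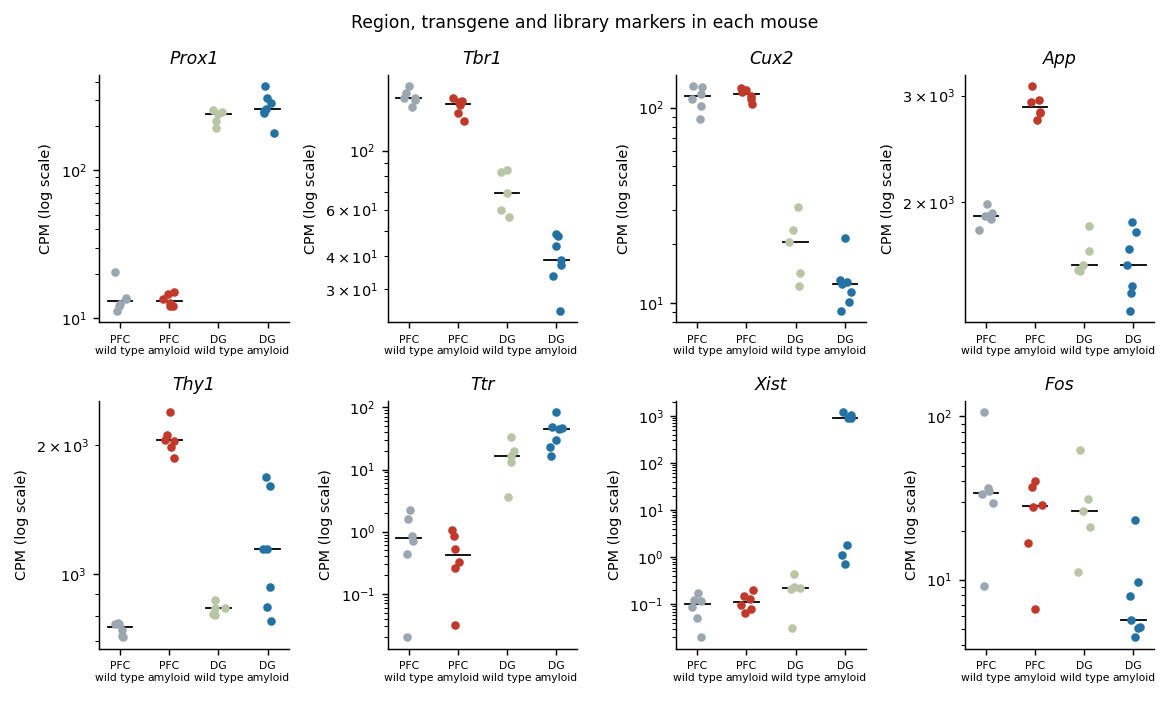
Normalised level (CPM, log scale) of region, transgene and library markers in each of the 24 mice, with the median of each group as a line; values below 0.02 CPM are drawn at 0.02. Prox1, Tbr1 and Cux2 separate the regions, App and Thy1 of the DG amyloid mice reach down into or near the wild-type range, and Xist is high in 4 of the 7 DG amyloid mice.

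Across all genes, 7365 of 16948 tested differed between the regions of amyloid mice (adjusted p under 0.05 and an absolute log2 difference of at least 0.5), which is 43.5% of those tested. PFC was higher for 3823 genes, 22.6%, and DG for 3542 genes, 20.9%, so a gene list is read below against about 1 called gene in 5 in each direction. The 6 PFC values and the 7 DG values did not overlap for 20.8% of genes with PFC higher and for 22.2% with DG higher. The median log2 difference of all tested genes was -0.03.

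Genes of plaque-associated microglia were called higher in PFC more often than in DG, and the largest of these differences exceeded 4 units on the log2 scale. Of the 30 genes listed, all tested, 14 were called higher in PFC and 5 higher in DG, and 11 were not called. The ranges did not overlap for 16 of them with PFC higher and 3 with DG higher. Their median log2 difference was 0.37. The sum over the list did not follow the counts, since it is carried by abundant members such as Apoe. It lay between 3956 and 4701 CPM in PFC and between 4230 and 5412 CPM in DG.

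The receptor and its partner differed in level between the regions. Trem2 (ENSMUSG00000023992, chromosome 17, 48346401 to 48354147, GRCm38) had a lowest, median and highest value of 42.5, 55.2 and 62 CPM in PFC and of 11.5, 13.1 and 27.3 CPM in DG. No DG mouse reached the lowest PFC mouse, and the log2 difference was 1.73 ± 0.17 (adjusted p = 3.88e-07). Tyrobp, which carries the Trem2 signal into the cell, measured 41.9, 49.9 and 64.5 CPM in PFC and 11.9, 16.9 and 37.7 CPM in DG, again without overlap (1.35 ± 0.21, adjusted p = 4.67e-05).

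The largest difference within the plaque-associated list was that of Clec7a. Clec7a (ENSMUSG00000079293, chromosome 6, 129461591 to 129472779), a lectin receptor for glucans, measured 9.35, 12.6 and 14.6 CPM in PFC. In the DG mice it measured 0.212, 1.08, 0.246, 0.147, 0.203, 0.604 and 0.290 CPM in replicates 1 to 7, and only replicates 2 and 6 lay above the DG wild-type range of 0 to 0.340. The log2 difference was 5.02 ± 0.33 (adjusted p = 4.25e-09).

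Cst7 (ENSMUSG00000068129, chromosome 2, 150570415 to 150578944), a cystatin that inhibits lysosomal cathepsins, measured 29.7, 34.3 and 41.0 CPM in PFC. The DG mice were spread widely, with 0, 8.44, 0.0821, 1.20, 0.203, 0.378 and 0.112 CPM in replicates 1 to 7. The difference of 4.73 ± 0.77 (adjusted p = 5.83e-05) became 6.63 without DG replicate 2. Itgax, an integrin subunit, measured 9.86, 10.9 and 13.6 CPM in PFC and 0, 0.171 and 2.93 CPM in DG (4.46 ± 0.65, adjusted p = 1.79e-05), and 5.95 without DG replicate 2. Ccl3, a chemokine, measured 3.19 to 6.09 CPM in PFC and 0.0378 to 0.993 CPM in DG (4.53 ± 0.48, adjusted p = 7.41e-07), and 5.48 without the same mouse. DG replicate 2 held the highest DG value for all 14 members called higher in PFC, and without it the list still had 14 members called higher in PFC.

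Lysosomal genes differed by less. Cd68, a lysosomal membrane protein of phagocytes, measured 24.2, 25.6 and 32.8 CPM in PFC and 5.75, 6.91 and 12.7 CPM in DG (1.85 ± 0.16, adjusted p = 9.81e-08). Ctsd, the aspartic protease cathepsin D, measured 347, 378 and 454 CPM in PFC and 163, 195 and 269 CPM in DG (0.90 ± 0.10, adjusted p = 1.37e-06). Neither gene overlapped between the regions.

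The 5 members called higher in DG were Apoe, Lpl, Gpnmb, Lgals3 and Cd63. Apoe, the lipid carrier that astrocytes also make, measured 714, 799 and 936 CPM in PFC and 1272, 1466 and 1645 CPM in DG (-0.84 ± 0.08, adjusted p = 1.26e-07). In the wild-type mice Apoe showed the same order, with 615 to 724 CPM in PFC and 1186 to 1513 CPM in DG. Lpl, lipoprotein lipase, measured 34.9 to 45.7 CPM in PFC and 48.7 to 139 CPM in DG (-0.94 ± 0.20, adjusted p = 0.000675). Gpnmb, a glycoprotein of phagocytes, measured 2.68 to 4.73 CPM in PFC and 2.57 to 11.6 CPM in DG (-1.26 ± 0.28, adjusted p = 0.000796), and its groups overlapped.

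**Figure D2:**
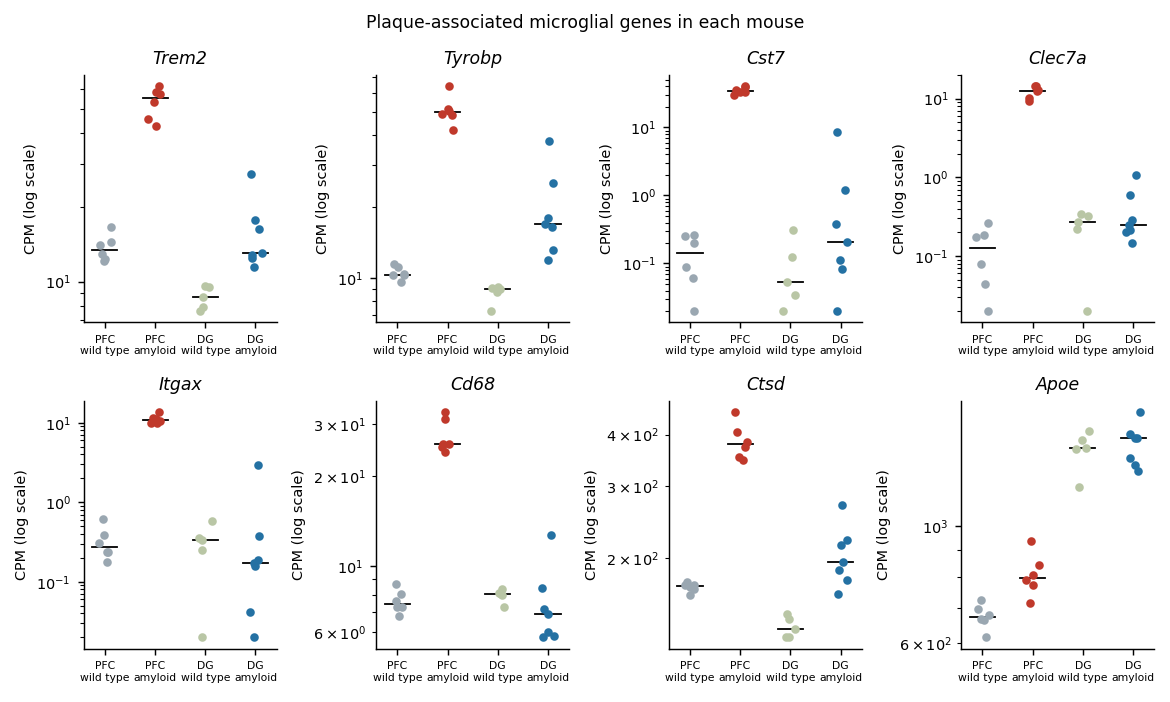
Normalised level (CPM, log scale) of 8 genes of plaque-associated microglia in each mouse of the 4 groups, with group medians as lines; values below 0.02 CPM are drawn at 0.02. For 7 of the 8 genes the PFC amyloid mice lie above the 3 other groups, and Apoe is higher in DG with and without amyloid.

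Homeostatic microglial genes did not run the other way. Of 18 listed and tested, 10 were called higher in PFC, 1 higher in DG and 7 were not called, with a median log2 difference of 0.66. Cx3cr1, the fractalkine receptor, measured 67.2, 77.5 and 85.0 CPM in PFC and 26.3, 37.7 and 41.5 CPM in DG (1.10 ± 0.10, adjusted p = 9.4e-08). Fcrls, an Fc-receptor-like protein of microglia, measured 53.3 to 73.2 CPM in PFC and 5.46 to 22.1 CPM in DG (2.33 ± 0.23, adjusted p = 3.61e-07). The groups were separate for both genes.

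Fcrls differed between the regions without amyloid too, at 23.6 to 27.9 CPM in PFC and 2.19 to 4.32 CPM in DG. Slc2a5, a fructose transporter, differed by 2.27 ± 0.35 (6.21 to 9.99 CPM in PFC and 0.519 to 3.30 CPM in DG, adjusted p = 3.11e-05). Cd33, a sialic acid receptor, differed by 1.57 ± 0.14 (17.1 to 24.1 and 4.43 to 8.56 CPM, adjusted p = 1.18e-07). Rhob, a small GTPase not limited to microglia, was the member called higher in DG (165 to 192 and 263 to 347 CPM, -0.81 ± 0.06, adjusted p = 2.68e-08). Among the genes often used to identify homeostatic microglia, P2ry12 and Tmem119 were not called, while Cx3cr1 was called higher in PFC. P2ry12, the purine receptor that guides their processes, measured 41.5, 49.9 and 58.6 CPM in PFC and 29.1, 47.2 and 55.9 CPM in DG (0.14 ± 0.13, adjusted p = 0.351). Tmem119 measured 22.6 to 28.8 and 22.7 to 30.3 CPM (-0.12 ± 0.07, adjusted p = 0.162). The summed level of the list was 1107 to 1324 CPM in PFC and 1019 to 1217 CPM in DG, and all mice of both groups lay above their wild type (825 to 876 and 862 to 960 CPM). Without the 4 DG mice that express Xist, an alternative chosen after the data were seen, 7 members were called higher in PFC in place of 10.

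Complement genes were higher in PFC for 9 of the 13 tested, of 14 listed, and higher in DG for 2, with a median log2 difference of 0.86. C1qa, a chain of the initiating protein C1q, measured 72.7, 86.4 and 100.6 CPM in PFC and 37.7, 42.7 and 71.6 CPM in DG (0.86 ± 0.13, adjusted p = 3.66e-05). C4b, the next component of the classical pathway and a gene of reactive astrocytes, measured 33.2, 41.0 and 46.8 CPM in PFC and 10.5, 18.8 and 27 CPM in DG (1.10 ± 0.17, adjusted p = 3.02e-05). Neither gene overlapped between the regions.

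The receptors for complement fragments followed the same direction. C3ar1 measured 4.64 to 7.89 CPM in PFC and 0.968 to 2.89 CPM in DG (1.91 ± 0.22, adjusted p = 1.51e-06). C5ar1 measured 1.09 to 1.87 and 0.165 to 0.604 CPM (2.18 ± 0.27, adjusted p = 3.98e-06). Itgam, a subunit of complement receptor CR3, measured 9.55 to 13.2 and 3.77 to 6.19 CPM (1.26 ± 0.12, adjusted p = 3.16e-07). The central component C3 was low and went the other way, with 0.325 to 0.606 CPM in PFC and 0.615 to 1.85 CPM in DG (-1.38 ± 0.31, adjusted p = 0.00115). Serping1, the C1 inhibitor, was called higher in DG (-0.78 ± 0.33, adjusted p = 0.0476) through DG replicate 6 at 24.6 CPM. Without that mouse the difference was -0.42 (adjusted p = 0.132), and leaving out DG replicate 1 or 2 or PFC replicate 1, 2, 3, 5 or 6 ended the call as well (-0.82 to -0.68, adjusted p of 0.0601 to 0.101).

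Genes of antigen presentation and of the type I interferon response were called in 1 direction. For antigen presentation, 11 of 16 tested genes were called higher in PFC and 0 higher in DG, with a median log2 difference of 0.68. For the interferon response, 13 of 18 were called higher in PFC and 0 higher in DG, with a median of 0.97. In the wild-type mice 8 of these 18 were called higher in PFC and 1 in DG, with a median of 0.67. H2-T23, a non-classical class I molecule, measured 15.0 to 26.4 CPM in PFC and 3.12 to 8.19 CPM in DG (2.14 ± 0.20, adjusted p = 2.23e-07), and the wild-type mice showed this difference as well (16.6 to 20.9 and 1.80 to 2.54 CPM). Nlrc5, the activator of class I genes, measured 1.63 to 4.21 and 0.0821 to 1.77 CPM (1.73 ± 0.40, adjusted p = 0.00124).

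Cd74, the class II invariant chain, measured 9.17, 15.7 and 23.6 CPM in PFC and 1.15, 3.18 and 13.4 CPM in DG, with overlap (1.44 ± 0.52, adjusted p = 0.0218). Its call was lost without PFC replicate 5 (1.29, adjusted p = 0.0513). Among the interferon-induced genes, Rsad2, an antiviral enzyme, measured 2.40 to 5.89 and 0.492 to 1.87 CPM (2.08 ± 0.30, adjusted p = 1.46e-05). Mx1, a GTPase that acts against viruses, measured 0.759 to 3.03 and 0 to 0.669 CPM (2.98 ± 0.56, adjusted p = 0.00021), and 3.81 without DG replicate 7. Ifi27l2a measured 1.61 to 4.93 and 0.0814 to 1.18 CPM (1.97 ± 0.45, adjusted p = 0.00106). DG replicate 7 held the highest DG value for 9 of the 13 interferon genes called, and DG replicate 6 for 7 of the 11 of antigen presentation.

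**Figure D3:**
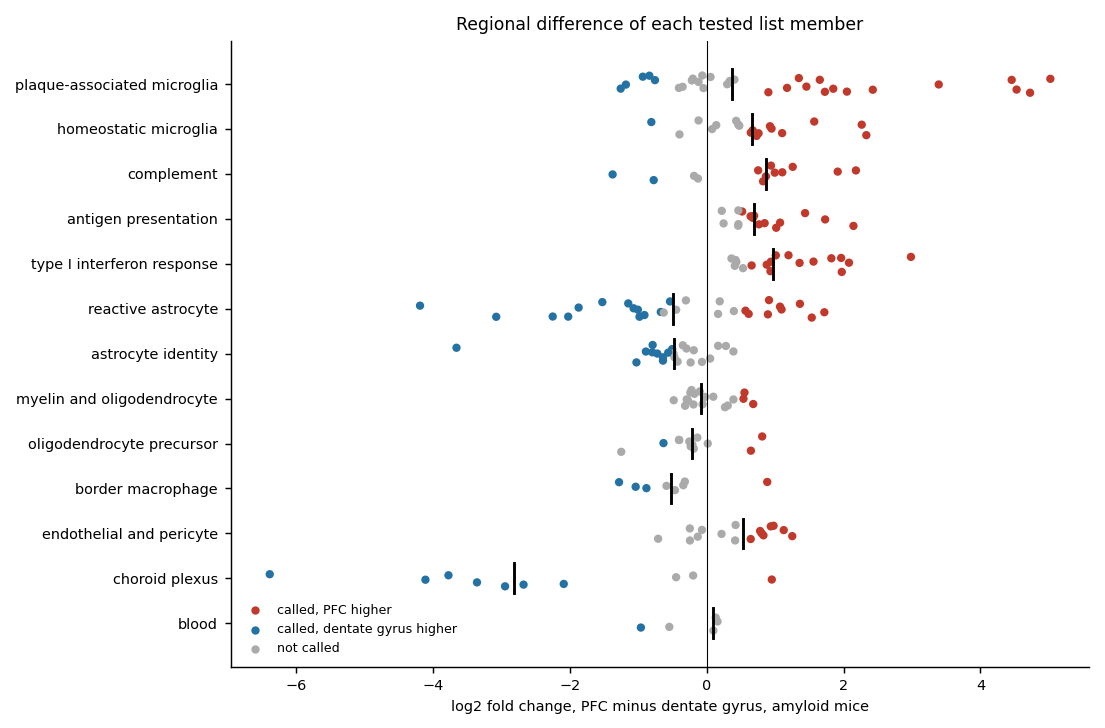
Log2 difference (PFC minus DG, amyloid mice) of each tested member of the 13 glial, vascular, choroid plexus and blood lists, red where called higher in PFC, blue where called higher in DG and grey where not called, with the median of each list as a bar. The microglial, complement, antigen presentation and interferon lists lie to the right of 0 in the median and the astrocyte lists to the left.

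Astrocyte genes were more often higher in DG. Of 32 genes of reactive astrocytes, 28 were tested. PFC was called higher for 9 and DG for 13, and the median log2 difference was -0.49. Gfap (ENSMUSG00000020932, chromosome 11, 102887336 to 102900912), the intermediate filament of astrocytes, measured 176, 263 and 292 CPM in PFC, and 526.04, 763.9, 387, 590, 406, 562 and 320 CPM in DG replicates 1 to 7. No PFC mouse reached the lowest DG mouse (-1.01 ± 0.17, adjusted p = 0.0001). The wild-type mice were further apart than the amyloid mice, at 49.7 to 68.8 CPM in PFC and 287 to 465 CPM in DG.

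Serpina3n (ENSMUSG00000021091, chromosome 12, 104406729 to 104414329), a secreted protease inhibitor, measured 15.0, 21.4 and 24.6 CPM in PFC and 440, 249, 63.6, 266, 66.2, 76.0 and 57.2 CPM in DG replicates 1 to 7 (-3.08 ± 0.49, adjusted p = 4.28e-05). The DG values fell into a high set of 3 mice and a low set of 4, and 1 of the 7 exceeded the DG wild-type range of 329 to 405 CPM. Without DG replicate 1 the difference was -2.65. Cd109, a membrane protein that binds TGF-β, measured 0.258 to 0.756 CPM in PFC and 6.17 to 14.3 CPM in DG (-4.19 ± 0.28, adjusted p = 4.25e-09), and 30.7 to 43.1 CPM in the DG wild-type mice. Fkbp5, a glucocorticoid-induced chaperone, measured 22.7 to 50.9 and 87.7 to 151 CPM (-2.03 ± 0.18, adjusted p = 8.34e-08).

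Vim, a second filament protein, measured 26.4 to 34.5 CPM in PFC and 39.8, 45.3 and 86.2 CPM in DG, where the highest was replicate 6 (-0.67 ± 0.16, adjusted p = 0.00147). Without that mouse the difference was -0.49, under the fold threshold. The members called higher in PFC included Aspg (4.38 to 7.69 and 0.821 to 3.85 CPM, 1.72 ± 0.33, adjusted p = 0.00024), the chemokine Cxcl10 (0.366 to 2.32 and 0.0903 to 0.87 CPM, 1.53 ± 0.48, adjusted p = 0.0105) and the cytokine Clcf1 (1.71 to 3.06 and 0.587 to 1.36 CPM, 1.36 ± 0.21, adjusted p = 3.76e-05). Leaving out DG replicate 6 gave 10 genes called higher in DG in place of 13.

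Of 22 astrocyte identity genes, 0 were called higher in PFC and 10 higher in DG (median -0.48). Gjb6, the gap junction protein connexin 30, measured 46.4 to 55.3 CPM in PFC and 79.4 to 99 CPM in DG (-0.89 ± 0.07, adjusted p = 1.64e-08). Slc4a4, a bicarbonate transporter, measured 120 to 156 and 235 to 320 CPM (-1.03 ± 0.08, adjusted p = 1.97e-08). Aqp4, the water channel of the astrocyte endfoot, measured 93.8 to 120 CPM in PFC and 149 to 229 CPM in DG, with a DG median of 162 (-0.72 ± 0.09, adjusted p = 6.29e-06). All 3 genes separated the regions.

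Agt, angiotensinogen, measured 2.97 to 4.13 CPM in PFC and 28.4, 23.1, 39.6, 26.1, 35.4, 17.2 and 134 CPM in DG replicates 1 to 7 (-3.66 ± 0.46, adjusted p = 3.84e-06), and -3.03 without DG replicate 7. Slc1a2, the main glutamate transporter, was not called (2275 to 2964 and 1853 to 2816 CPM, 0.17 ± 0.09, adjusted p = 0.127). The summed level of the identity list was 7291 to 8656 CPM in PFC and 9461 to 10292 CPM in DG, and that of the wild-type mice 7591 to 9084 and 9089 to 9776 CPM.

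**Figure D4:**
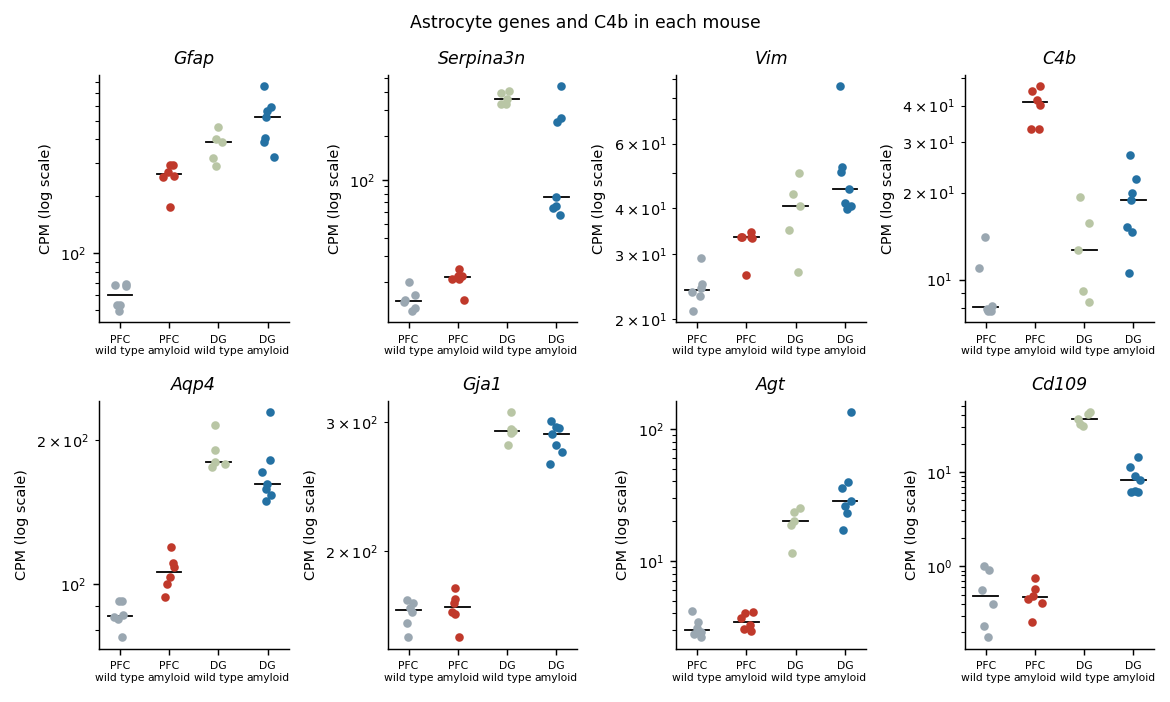
Normalised level (CPM, log scale) of 7 astrocyte genes and C4b in each mouse of the 4 groups, with group medians as lines. By the median, Gfap of the PFC amyloid mice lies between the wild types of the regions, Serpina3n and Cd109 are highest in the DG wild-type mice, and C4b is highest in the PFC amyloid mice.

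Oligodendrocyte genes differed little in number of calls. Of 18 myelin genes, 3 were called higher in PFC and 0 higher in DG, under the share of all genes, with a median of -0.08. Mbp, a structural protein of myelin, measured 553, 838 and 929 CPM in PFC and 728.6, 931 and 1256 CPM in DG (-0.29 ± 0.14, adjusted p = 0.0655). The myelin sum ran from 1939 to 3311 CPM among the DG mice alone. The called genes included Opalin (0.68 ± 0.20, adjusted p = 0.00636) and Mag (0.55 ± 0.17, adjusted p = 0.00988). Mag fell below the fold threshold when DG replicate 5 (0.48) or DG replicate 3 (0.498) was left out, and with length and GC correction (0.31, adjusted p = 0.0848). Among 12 genes of oligodendrocyte precursors, 2 were called higher in PFC and 1 in DG. Pdgfra, their growth factor receptor, measured 48.2 to 65.3 and 51.1 to 67.2 CPM (-0.21 ± 0.08, adjusted p = 0.0332, under the fold threshold). Cspg4, the proteoglycan NG2, measured 17.3 to 23.6 and 8.99 to 13.9 CPM (0.81 ± 0.11, adjusted p = 9.03e-06), and fell to 0.38 with length and GC correction, under the fold threshold.

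Genes of other cell types in the tissue moved between the groups as well. Of 16 endothelial and pericyte genes, 8 were called higher in PFC and 0 in DG, with Flt1, a VEGF receptor, at 66.8 to 89.1 and 25.7 to 53.8 CPM (1.12 ± 0.14, adjusted p = 5.01e-06). The sum of that list was 503 to 606 CPM in PFC and 348 to 732 CPM in DG. Of 8 border macrophage genes, 1 was called higher in PFC and 3 in DG. Cbr2 and F13a1, markers of these cells, lost their calls without DG replicate 6 (-0.63 and -0.61, adjusted p = 0.0738 and 0.0614), and also without DG replicate 1 or PFC replicate 3, Cbr2 also without PFC replicate 2 and F13a1 without PFC replicate 6. The sum of the list was 29.1 to 34.3 CPM in PFC and 17.8 to 59 CPM in DG. Of 10 choroid plexus genes tested, 1 was called higher in PFC and 7 in DG. Ttr, the transthyretin that the choroid plexus secretes, measured 0.0316 to 1.08 CPM in PFC and 16.8 to 84.0 CPM in DG. Of the 5 blood genes, 0 were called higher in PFC and 1 in DG, and their sum was 23.9 to 51.5 and 21.2 to 92 CPM. The part of these cell types in the glial differences was not tested.

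The regions differed in neuronal genes in the directions of their names. Of 12 dentate granule cell genes 11 were called higher in DG and 0 in PFC (median -2.57), and of 17 cortical layer genes 12 were called higher in PFC and 2 in DG (median 1.45). Dsp, desmoplakin, measured 0.0329 to 0.325 CPM in PFC and 92 to 221 CPM in DG. C1ql2, a synaptic organiser of mossy fibres, measured 0.361 to 0.721 and 60.1 to 128 CPM. Cux2, of the upper cortical layers, measured 104.8 to 127 and 9.08 to 21.5 CPM. Among all genes with a mean of at least 10 CPM in a group, the 10 with the largest difference toward PFC included Clec7a and Cst7. Of 14 neurogenesis genes, 8 were called higher in DG and 2 in PFC. All 12 immediate early genes, which are induced by neuronal activity and by handling, were called higher in PFC, with Nr4a1 at 66.7 to 144 and 16.1 to 26.3 CPM (2.39 ± 0.16, adjusted p = 5.97e-09).

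The fit over 24 mice also gave the regional difference in wild type. Called higher in PFC and in DG were 7 and 2 homeostatic genes (median 0.22) and 5 and 2 of complement (0.41). Interferon had 8 and 1 (0.67), antigen presentation 4 and 1 (0.17) and plaque-associated microglia 2 and 8 (-0.02). Reactive astrocytes had 5 and 11 (-0.38) and astrocyte identity 1 and 6 (-0.19). The share of all genes called there is not given. The wild-type mice were then used to ask whether the regional difference itself differed with amyloid. The test was the interaction, that is the log2 change with amyloid in PFC minus that in DG, over the 24 mice. It shares the 13 amyloid mice with the comparison above, its DG change was taken across 2 experiments, and in PFC all 6 amyloid libraries were run on lane 7 and all 6 wild-type libraries on lane 5, so lane and amyloid cannot be told apart there. It was called for 2701 of 17780 genes, 15.2%, with 1264 above 0 (7.11%) and 1437 below 0 (8.08%), and its median over all genes was -0.02. With libraries scaled by their total count instead, the split was 943 above and 2060 below 0. Reads of mitochondrially encoded genes made up 4.57 to 6.00% in the DG amyloid mice and 7.61 to 9.22% in the DG wild-type mice. In PFC they made up 3.99 to 5.05% and 3.92 to 4.86%. The sum of 8 CA pyramidal neuron genes was 415 to 695 CPM in DG amyloid and 884 to 1034 CPM in DG wild-type mice. In PFC it was 705 to 801 and 634 to 783 CPM. Of 12 immediate early genes, 10 were called lower with amyloid in DG, where 8.7% of all genes were called lower. The part of these differences in the interaction was not tested.

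The interaction of plaque-associated microglial genes was called above 0 more often than below. It was called above 0 for 14 of 30 and below 0 for 1, with a median of 1.02, and without DG replicate 2 for 17 and 1. In the same fit 17 members were called higher with amyloid in PFC and 0 lower, where 1.7% of all genes were called higher and 0.0731% lower. In DG 9 members were called higher and 3 lower, where 10.6% of all genes were called higher and 8.7% lower. Clec7a gave 5.87 ± 0.83 (adjusted p = 1.3e-05), Itgax 4.42 ± 1.07 (adjusted p = 0.00293), Cd68 1.94 ± 0.20 (adjusted p = 3.51e-07), Tyrobp 1.09 ± 0.27 (adjusted p = 0.0037) and Trem2 1.08 ± 0.23 (adjusted p = 0.000827). Itgax gave 5.92 without DG replicate 2. Trem2 and Tyrobp of all 7 DG amyloid mice lay above the DG wild type, and so did Cst7 of 3 and Clec7a of 2. Cst7 gave 4.25 ± 2.46 (adjusted p = 0.203) and was not called. Of the 14 members called higher in PFC under amyloid, the DG amyloid mice overlapped their wild type for 10, and the PFC amyloid mice overlapped theirs for 0. These members were picked on the same amyloid mice, which favours such a split, and the share over all genes was not counted.

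Lpl showed the opposite change in each region, and the interaction was 1.98 ± 0.26 (adjusted p = 6.89e-06). It measured 18.5 to 32.4 CPM in PFC wild-type mice and 164 to 206 CPM in DG wild-type mice, above every DG amyloid mouse. P2ry12 measured 32.7 to 39.5 CPM in PFC and 58.6 to 71.6 CPM in DG in the wild-type mice, and its interaction was 1.11 ± 0.16 (adjusted p = 1.75e-05). For the homeostatic list the interaction was called above 0 for 8 of 18 and below 0 for 0, with a median of 0.36.

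Gfap had an interaction of 1.64 ± 0.24 (adjusted p = 1.61e-05) and C4b of 1.58 ± 0.29 (adjusted p = 0.000271). Both were called higher with amyloid in PFC (2.10 and 2.08) and not in DG (0.46 and 0.50). Serpina3n gave 1.52 ± 0.54 (adjusted p = 0.0347) and Cd109 1.91 ± 0.45 (adjusted p = 0.00222), in which the DG amyloid mice lay mostly or wholly under the DG wild type. The Serpina3n call was lost in turn without PFC amyloid replicate 5, PFC wild-type replicates 2, 5 and 6 and DG wild-type replicate 5 (1.47 to 1.51, adjusted p of 0.0503 to 0.0553). Gjb6 ran the other way (-0.85 ± 0.09, adjusted p = 3.24e-07), with 48.1 to 54.9 CPM in DG wild-type mice and no change called in PFC. Mlc1, a membrane protein of astrocyte endfeet, gave -0.62 and Fgfr3, a growth factor receptor of astrocytes, -0.72. For the reactive astrocyte list 8 of the tested members were called above 0 and 3 below, and for astrocyte identity 0 and 3.

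The antigen presentation list had 5 members called above 0 and 1 below, and the interferon list 3 and 0. B2m, the light chain of class I molecules, gave 1.46 ± 0.18 (adjusted p = 2.74e-06), while H2-T23 gave -0.90 ± 0.26 (adjusted p = 0.00991). Without DG wild-type replicate 5 the antigen presentation count above 0 was 3. Without DG replicate 7 the interferon count was 6, and without PFC replicate 6 it was 2. Myelin genes had 0 called above 0 and 2 below, and the myelin sum of the wild-type mice ran up to 7046 CPM in PFC replicate 3. Oligodendrocyte precursor genes had 0 called in either direction. App and Thy1 had interactions of 0.65 and 0.99, both called. The change with amyloid was 0.61 and 1.47 in PFC and -0.042 and 0.48 in DG, where neither was called.

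**Figure D5:**
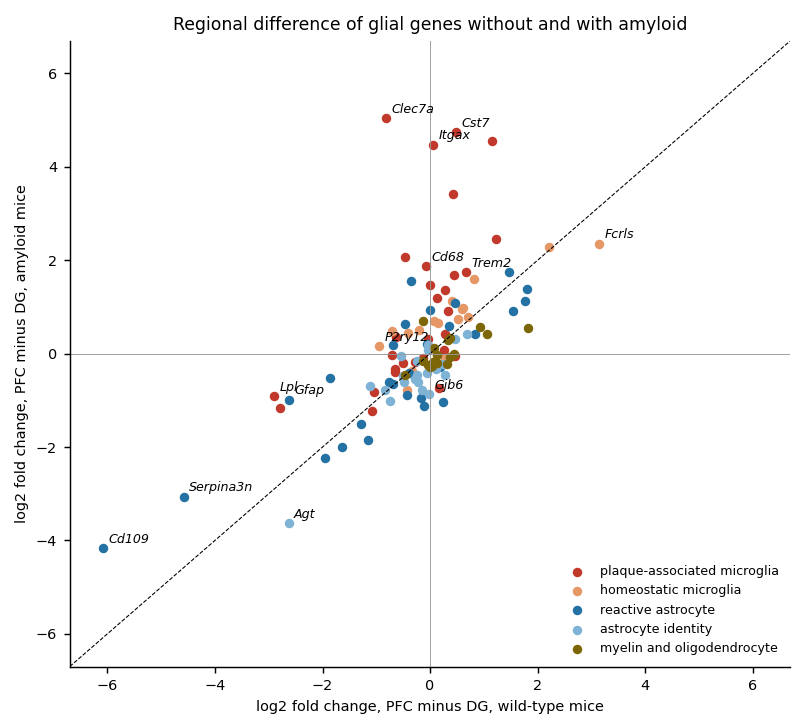
Log2 difference between regions (PFC minus DG) in the amyloid mice (vertical axis) against that in the wild-type mice (horizontal axis). Both are from the fit over 24 mice, and the line of equality is dashed. Shown are members of the plaque-associated microglia, homeostatic microglia, reactive astrocyte, astrocyte identity and myelin lists. Clec7a, Cst7 and Itgax lie far above the line at wild-type values within 1 unit of 0, and Serpina3n and Cd109 are lower than 0 on both axes.

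The DG amyloid mice can also be taken as the other 9 mice of the same cross, whose titles carry the letter K and whose genotype field reads "FMN2 +/+ APP". The W mice were taken because Fmn2 was expressed in them, so the K mice can differ from them in Fmn2. The Fmn2 level of the K mice is not given here. With those mice, 13 plaque-associated members were called higher in PFC and 6 higher in DG, and the interferon list gave 15 and 0. C4b was then not called (0.29, adjusted p = 0.312), nor were Cd74 (-0.19, adjusted p = 0.717) and Aspg (0.28, adjusted p = 0.371), and 4 genes of reactive astrocytes were called higher in PFC in place of 9. For the interaction the 5 DG wild-type mice were exchanged too, for 5 DG mice of 3 months whose titles name the Fmn2 knockout. The interaction was then not called for Clec7a (2.55, adjusted p = 0.157), Itgax (2.3, adjusted p = 0.135) or Gfap (1.02, adjusted p = 0.0596). It was called above 0 for 1 and below 0 for 4 reactive astrocyte genes, in place of 8 and 3, and above 0 for 2 genes each of antigen presentation and complement, in place of 5 and 4. With only the 3 W mice that show Y-linked reads, 14 plaque-associated members were called higher in PFC and 6 higher in DG, and Cst7 differed by 3.53.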

How the data were processed

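Bulk RNA of brain tissue was sequenced single-end. According to the study's methods, RNA was isolated with TRIZOL, libraries were made with a TruSeq kit, and the authors aligned reads to mm10 with STAR and counted them per gene with HTSeq. They deposited whole-number read counts for 48709 Ensembl genes. The annotation release and strand setting are not given in the sources used here. Symbols came from GENCODE M21 (48349 matched). The 2 runs of 1 DG mouse were summed.

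Counts were normalised by TMM and tested with edgeR 4.0.16 (filterByExpr, quasi-likelihood test, Benjamini-Hochberg adjustment over all genes tested) in R 4.3.3. A gene was called at an adjusted p under 0.05 and an absolute log2 difference of at least 0.5. CPM used TMM library sizes of the 24 mice. Named genes were a fixed panel, up to 3 called members per list and direction with a mean of at least 1 CPM, the 10 largest differences each way at 10 CPM or more, and every glial list member with a called interaction, and some of these genes are not reported here. The members and lists were chosen with earlier results of these data known. Every p-value measures the spread between these mice, and values under about 1 CPM rest on few reads, where counting error is large (in the DG amyloid mice Cst7 had 0 to 187 reads with a median of 5, and Clec7a 5 to 24). In simulated counts 200 genes were changed and each gene had the same spread in every group. The regional test recovered 50% of 1.5-fold, 76.1% of 2-fold and 100% of 4-fold changes, with 6 false calls of 16754 genes. The interaction test recovered 32.3%, 65.7% and 92.4%, with 2 false calls of 17497. In the data 43.5% of genes were called between regions and the DG libraries were less alike, so these false calls are not the error rate of the real calls.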

Additional observations from a re-analysis of the deposited data

Results flagged for a closer look

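Single mice stood far from the others of their group, by Dixon's test at the 95% level, for 33 of 218 pairs of a named gene and a group. Chance gives about 1 in 20 such pairs only for independent and normally distributed values. The test was run on unlogged CPM, and 1 library can stand out for many genes, so that share is no baseline for the 33. Of the 33, 13 were in PFC and 20 in DG, and the latter fell on 3 mice.

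DG replicate 2 was high for 5 genes of plaque-associated microglia, with 27.3 CPM for Trem2, 8.44 for Cst7, 2.93 for Itgax, 12.7 for Cd68 and 0.993 for Ccl3. DG replicate 6 was high for 7 genes, with 86.2 CPM for Vim, 229 for Aqp4, 24.6 for Serping1, 8.19 for H2-T23, 22.8 for Stab1, 53.8 for Flt1 and 12.4 for Nes. DG replicate 7 was high for 8 genes, with 134 CPM for Agt, 21.5 for Cux2, 0.669 for Mx1, 68 for Mag, 29.4 for Prlr, 8.10 for Drd2, 13.9 for Foxp2 and 9.21 for Npas4.

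In PFC, replicate 6 was low for Gfap (176 CPM), Vim (26.4), Mbp (553) and Mag (40.6) and alone had a read of Rtl3 (0.0322). PFC replicate 3 was high for Pdgfra (65.3), Fkbp5 (50.9), Gjb6 (55.3) and Lhx9 (0.871). PFC replicate 5 was high for Fcrls (73.2) and Slc2a5 (9.99) and low for Gm19410 (93.1). PFC replicate 2 was listed at 0 for Draxin.

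The change with amyloid differed between PFC and DG for 71 named genes (edgeR interaction, adjusted p under 0.05), with 52 values above 0 and 19 below 0. All values that follow are interactions on the log2 scale. Among plaque-associated microglial genes they were 1.08 for Trem2, 1.09 for Tyrobp, 5.87 for Clec7a, 4.42 for Itgax, 1.94 for Cd68, 0.60 for Ctsd, 1.06 for Ctsz, 2.53 for Cd52, 0.68 for Cd9, 1.22 for Itgb2, 0.99 for Igf1, 1.49 for Lyz2, 1.98 for Lpl, 1.64 for Lgals3 and -0.91 for Cd63. Among homeostatic genes they were 1.11 for P2ry12, 1.18 for P2ry13, 0.72 for Cx3cr1, 0.85 for Gpr34, 0.71 for Selplg, 0.78 for Cd33 and 0.63 for Sall1.

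For complement they were 0.64 for C1qa, 1.58 for C4b, 1.31 for C3ar1 and 0.67 for Itgam. For antigen presentation they were 1.46 for B2m, 0.69 for H2-K1, 0.99 for H2-D1, 0.81 for Tap1, 1.82 for Cd74 and -0.90 for H2-T23, and for the interferon response 1.6 for Oasl2, 2.17 for Xaf1 and 1.21 for Rsad2. Of the 24 mice left out 1 at a time, 13 ended the call of Cd74 (1.58 to 2.16, adjusted p up to 0.102), which was also lost with the total count (1.73, adjusted p = 0.0556) and with no filter on low counts (1.80, adjusted p = 0.0512). For Rsad2 it was 3 of the 24 and for H2-K1 1.

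Reactive astrocyte genes gave 1.64 for Gfap, 1.52 for Serpina3n, 1.91 for Cd109, 1.34 for Ptgs2, 0.63 for Ggta1, 0.88 for Srgn, 1.10 for Osmr, 0.93 for Cd14, -1.0 for Tm4sf1, -0.63 for S100a10 and -0.70 for Amigo2. Astrocyte identity genes gave -0.85 for Gjb6, -0.72 for Fgfr3 and -0.62 for Mlc1, and the oligodendrocyte gene Olig1 gave -0.53. Leaving out 1 mouse ended the call of S100a10 for 17 of the 24, of Ggta1 for 12, of Olig1 for 7 and of Serpina3n for 5. App gave 0.65, Cux2 0.69 and Tbr1 0.73.

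The largest interactions of all genes were above 0 for Gm10800 (7.90), Gm28438 (7.55), Tnfsf8 (5.61), Ifi204 (4.95), Gm765 (4.80), Pdcd1 (4.77), Hcar2 (4.45) and Gm10925 (4.28). They were below 0 for ENSMUSG00000104090 (-8.29), Trim12a (-7.01), Gm10654 (-6.90), Irs4 (-6.84), Trh (-6.82), Glns-ps1 (-6.18), mt-Tr (-6.09), Gm24601 (-6.00), Olfr316 (-5.95) and Gpr137b-ps (-5.60). Several of these were at 0 in a whole group, where the fitted size depends on the prior count and is no bound. Without DG replicate 7, Irs4 became -3.00 and Trh -1.86. Gm765 became 1.01 without DG wild-type replicate 3 (adjusted p = 0.449). Gm24601 became -3.68 without PFC wild-type replicate 6 (adjusted p = 0.144) and -2.42 with the replicate block (adjusted p = 0.291).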

How the results depend on the processing

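Counts of called genes stayed within 1.5 times under DESeq2, other scalings, no filter on low counts, and length and GC correction. With a log2 threshold of at least 1 they were 3268 in the regional comparison (1958 higher in PFC, 1310 in DG) and 921 for the interaction (447 above 0, 474 below 0). With the K mice, and the Fmn2 knockout DG mice in place of the DG wild type, the interaction was called for 1283 genes (639 above 0, 644 below 0). Every interaction given below for the K mice used the same exchange of both DG groups. Leaving out 1 mouse at a time gave 7118 to 7490 regional calls and 2416 to 2973 interaction calls, with leaving out the wild-type mice and taking only the W mice with Y-linked reads chosen after the data were seen. The replicate numbers did not pair the mice (correlation of deviations of same-numbered mice -0.16 to 0.10 over 6 pairs). The replicate block gave 7450 regional and 2800 interaction calls, and interaction medians of 0.62 for complement, 0.88 for antigen presentation, 0.28 for reactive astrocyte, -0.18 for astrocyte identity and 0.19 for oligodendrocyte precursor genes. With the block and length and GC correction together, these were 0.63 for complement, 0.98 for antigen presentation and -0.14 for astrocyte identity, the regional median of astrocyte identity was -0.57, and Slc1a2 (-0.054) changed sign. With the total count the interaction median of astrocyte identity was -0.35. With the K mice, regional medians were -0.33 for astrocyte identity, 0.29 for myelin and -0.014 for oligodendrocyte precursor genes, and interaction medians 0.66 for plaque-associated microglia, -0.027 for astrocyte identity, 0.15 for myelin and 0.17 for precursors. P2ry12 (-0.021), Tmem119 (0.19), Mbp (0.16), Cd74 (-0.19) and Enpp2 (-1.89) changed sign there, and so did the interactions of Gm765 (-2.84) and Olig1 (0.17). With the Y-linked W mice, regional medians were 0.45 for homeostatic microglia, -0.024 for reactive astrocytes and -0.073 for precursors, P2ry12 (-0.064) changed sign, and interaction medians were 0.72 for plaque-associated microglia, 0.27 for reactive astrocytes and 0.24 for precursors. Without 1 mouse, the regional median of reactive astrocytes ranged from -0.58 (without DG replicate 7) to -0.21 (without DG replicate 6), the interaction median of precursors from -0.042 to 0.22 (without DG replicate 7), and that of myelin from -0.40 to 0.046 (without PFC wild-type replicate 3). The cause of these shifts was not tested. Among the named genes of the regional comparison, 1 lost its call under DESeq2 and 2 under the block, and among 68 interactions 0 under DESeq2 and 3 of 67 under the block, and none of these changed sign. Length and GC correction ended 5 regional and 2 interaction calls. With the K mice 5 regional calls were lost at an unchanged sign and 5 values changed sign. Of the latter, Cd74 and Enpp2 had been called and lost their calls too. Of 67 interactions 26 were lost at an unchanged sign, and the 2 that changed sign, Gm765 and Olig1, were no longer called. With the Y-linked W mice 7 and 6 calls were lost.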
